A study of Mus musculus with 3 samples.

Results

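The imprinted growth genes are 10 genes taken by symbol, *H19*, *Igf2*, *Dlk1*, *Meg3*, *Peg3*, *Cdkn1c*, *Grb10*, *Mest*, *Plagl1*, and *Ndn*, out of 28692 genes in the count matrices. All 10 were detected, and all 10 passed the filter on low counts in the comparisons of cell classes and of stromal types. The counts came from scRNA-Seq (10x Genomics, version 3 chemistry) of dissociated whole lungs of 3 wild-type C57BL/6 mice at P14 (postnatal day 14) that had breathed room air (RA) between P1 and P14. The mice carry the numbers 2, 3, and 4, and nothing in the labels says whether they shared a litter. There is a single condition, so every comparison is between kinds of cell within the same 3 lungs, and the mouse, not the cell, was the replicate.

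Of 9644 deposited cells, 7642 were kept (2386, 2601, and 2655 in mice 2, 3, and 4), with a median of 6033.5 unique molecular identifiers (UMIs, each counting 1 captured transcript) per cell. A total of 5677 cells is named in the description of the experiment, and the filter behind that number is not given in the sources used here. Cells were clustered with the 10 genes left out and named from marker lists, which gave 1256 epithelial-like cells, 960 endothelial-like cells (ECs), 1536 stromal-like cells, and 3024 immune-like cells. A further 27 Schwann-like cells and 839 cells in clusters of no class stood apart. The classes differed in depth, with a median of 16222.5 UMIs in epithelial, 7590.0 in EC, 10551.5 in stromal, and 3862 in immune cells, and immune cells made up 55.1% of the kept cells of mouse 3 against 29.2% and 33.7% in mice 2 and 4. Between 2 and 5 cell barcodes were shared by each pair of libraries. Levels are given as CPM, the UMIs of a gene per 1000000 UMIs of the summed cells of a mouse, with no scaling by gene length, and intervals cover counting error only.

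Imprinted genes are transcribed mainly from the copy inherited from either the mother or the father, and many of them set the pace of growth before and after birth. *Igf2*, *Dlk1*, *Peg3*, *Mest*, *Plagl1*, and *Ndn* are expressed from the paternal copy, and *H19*, *Meg3*, and *Cdkn1c* from the maternal copy, while *Grb10* is maternal in most tissues. As background, much of this network is highly expressed in fetal tissues and declines as organs mature. UMIs do not tell the parental copies apart, so the values below are levels of RNA and say nothing about which copy was read.

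The 10 genes were spread unequally over the 4 classes, and stromal cells held the largest mean share of UMIs for 7 of them. That share was 74.1% ± 13.5 for *H19*, 68.4% ± 3.32 for *Grb10*, 67.7% ± 9.75 for *Ndn*, 66.8% ± 5.45 for *Peg3*, 63.7% ± 20.6 for *Igf2*, 54.7% ± 9.80 for *Cdkn1c*, and 52.6% ± 7.61 for *Plagl1* (SD, n = 3 mice), while stromal cells supplied 26.3% ± 1.18 of all UMIs. Chondrocyte-like cells, 18 stromal cells described below, held 58.0% of all *H19* UMIs and 45.4% of all *Igf2* UMIs. For *Igf2*, stromal cells held 109, 663, and 300 UMIs in mice 2, 3, and 4, and ECs held 116, 105, and 110. ECs thus held more *Igf2* UMIs than stromal cells in mouse 2. The other 3 of the 10 genes lay elsewhere. ECs held 81.5% ± 4.88 of the *Mest* UMIs. Epithelial cells held 59.3% ± 19.4 of the *Dlk1* UMIs and 57.3% ± 13.3 of the *Meg3* UMIs. Immune cells were nearly devoid of all 10 RNAs, and 2872 of 3024 immune cells held no UMI of any of them.

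**Figure D1:**
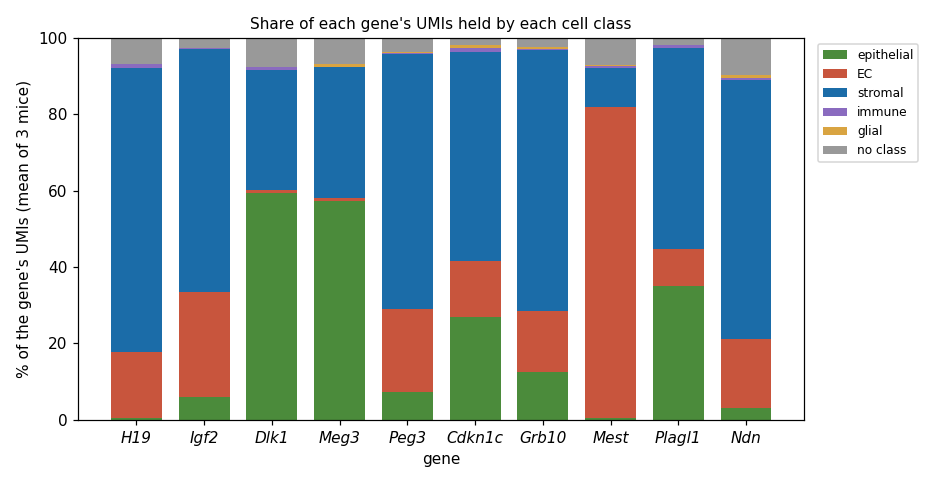
Mean share of each gene's UMIs held by each cell class over the 3 mice, in % (stacked bars, x axis genes). Stromal cells fill most of the bar for *H19*, *Grb10*, *Ndn*, *Peg3*, and *Igf2*, ECs hold 81.5% for *Mest*, and epithelial cells hold 59.3% for *Dlk1* and 57.3% for *Meg3*.

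The number of cells behind these RNAs differed as much as the classes did. Of all *Grb10* UMIs, 50% lay in 488 cells, and the corresponding number was 276 cells for *Ndn*, 233 for *Meg3*, 231 for *Plagl1*, 223 for *Peg3*, 145 for *Cdkn1c*, and 93 for *Mest*. It was 19 cells for *Dlk1*, 11 for *Igf2*, and 7 for *H19*. The last 3 genes therefore rest on few cells in every comparison below.

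**Figure D2:**
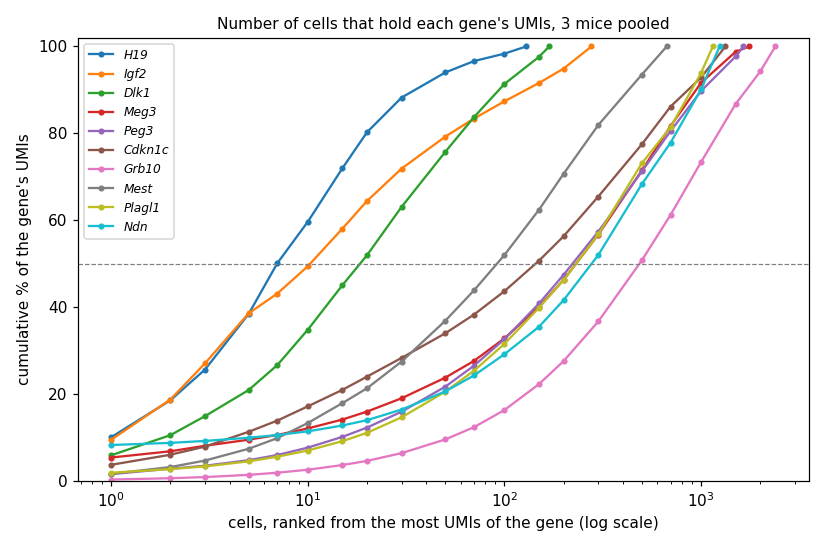
Cumulative % of each gene's UMIs (y axis) against the number of cells ranked from the most UMIs of that gene (x axis, log scale), 3 mice pooled, with the dashed line at 50%. The *H19* line crosses 50% at 7 cells and the *Grb10* line at 488 cells.

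Among stromal cells, the share with at least 1 UMI was 79.5% for *Grb10*, 57.5% for *Peg3*, 55.7% for *Ndn*, 54.8% for *Cdkn1c*, 44.5% for *Meg3*, and 36.1% for *Plagl1*. It was 9.64% for *Igf2*, 7.04% for *Mest*, 4.20% for *H19*, and 2.64% for *Dlk1*. In B-cell-like cells, which should lack these RNAs and had a median of 3960.0 UMIs per cell, the shares lay between 0.0377% for *Dlk1* and 1.14% for *Meg3*. Every stromal share was above the B-cell-like share of the same gene, at unequal depth.

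Comparing the 4 classes in pairs asks which kind of cell carries more of each RNA. UMIs were summed per mouse and class and tested with edgeR's quasi-likelihood test, with p-values adjusted by Benjamini-Hochberg over 14210 genes. The classes were built from other genes of the same cells, and the tests take those names as given. Against ECs, stromal cells had more of 8 and less of 1 of the 10 genes, beside a background of 55.8% of all genes called (31.2% higher and 24.6% lower). Against epithelial cells, stromal cells had more of 8 and less of 2 (background 67.3%, with 36.0% higher and 31.3% lower). Against immune cells, stromal cells had more of all 10 (background 76.3%, with 38.9% higher and 37.4% lower). ECs had more of 6 and less of 3 than epithelial cells (background 66.3%, with 33.7% higher and 32.6% lower) and more of 9 than immune cells (background 69.4%, with 34.0% higher and 35.3% lower). Epithelial cells had more of 7 than immune cells (background 75.5%, with 37.9% higher and 37.6% lower). The median log2 difference over the 10 genes was 1.25 for stromal minus EC, 2.79 for stromal minus epithelial, and 6.12 for stromal minus immune, where the median over all genes tested was 0.06, 0.07, and 0.02. Most genes tested differed between classes, and the counts are to be read against those percentages.

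**Figure D3:**
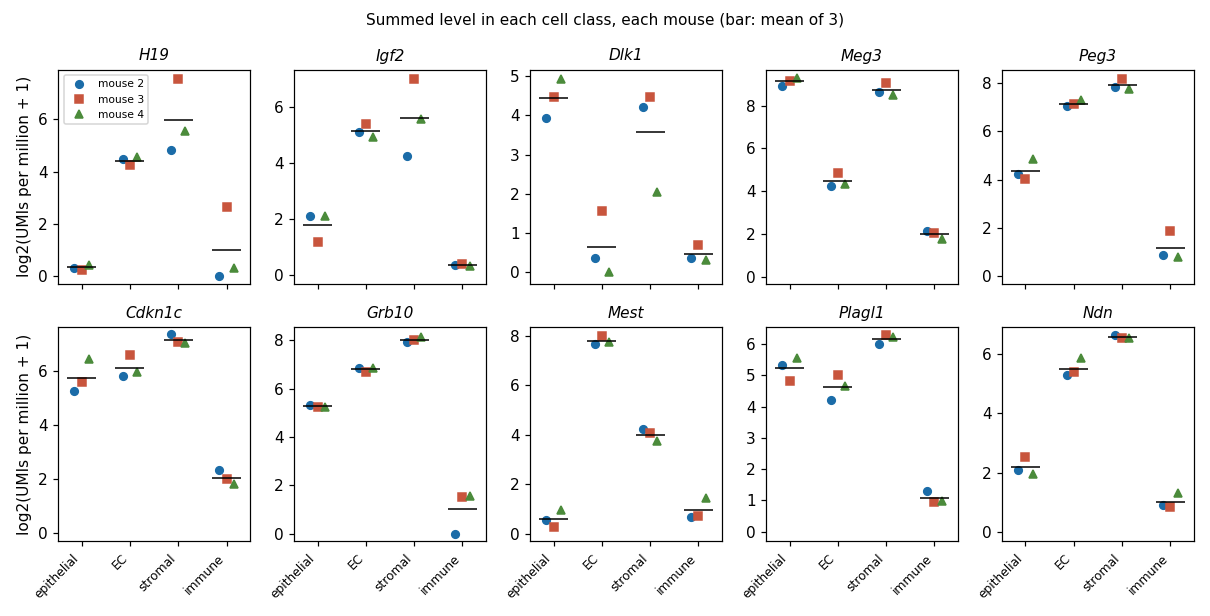
Level of each gene as log2(CPM + 1) (y axis) in 4 cell classes (x axis), a symbol for each mouse and a bar for the mean of 3. The mice lie close together for *Grb10*, *Mest*, *Meg3*, and *Ndn*, while *H19*, *Igf2*, and *Dlk1* spread widely in stromal cells.

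*H19*, a long noncoding RNA (chr7:142575529-142578143, minus strand, GRCm38), and *Igf2*, which encodes a secreted growth factor (chr7:142650766-142666816, minus strand), are neighbors in an imprinted cluster. Both genes host microRNAs, small RNAs whose bases 2 to 8, the seed, pair with target transcripts. The mature sequences are printed from RefSeq (GRCm38.p6) with the seed in capitals, to show the small RNA products of these loci. The *H19* pair lies in an exon and the *Igf2* pair in an intron, and no seed was shared. MicroRNAs were not measured in these libraries.
mmu-miR-675-5p: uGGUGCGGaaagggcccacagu
mmu-miR-675-3p: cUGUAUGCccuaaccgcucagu
mmu-miR-483-5p: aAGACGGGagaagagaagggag
mmu-miR-483-3p: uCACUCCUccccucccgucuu

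A group of 18 chondrocyte-like cells, named from cartilage genes such as *Col2a1* and *Acan*, held most of the *H19* UMIs pooled over the mice. These cells held 1016 of 1752 *H19* UMIs (58.0%) and 686 of 1512 *Igf2* UMIs (45.4%), yet 0.424% of all UMIs. In mice 2, 3, and 4 there were 3, 11, and 4 such cells, with 109, 706, and 201 *H19* UMIs and 33, 447, and 206 *Igf2* UMIs. That was 40.1%, 64.4%, and 52.5% of the *H19* UMIs of each mouse, and 12.7%, 55.8%, and 45.7% of its *Igf2* UMIs. All 3 mice thus contributed, mouse 3 by far the most. A chondrocyte-like cell held a median of 46 *H19* UMIs (range 0–176, present in 15 of 18) and 26.5 *Igf2* UMIs (range 0–140, present in 17 of 18). None of the 18 was marked as a doublet. They formed a group of their own at the clustering resolution of 0.8 used here. At a resolution of 0.4 the stromal cluster led by *Col2a1* had 74 cells (median 1108 UMIs) and stayed unnamed. At a resolution of 1.2 the chondrocyte-like group had 19 cells, 12 of them from mouse 3. Pooled, the level in chondrocyte-like cells was 3604 CPM for *H19* (95% exact Poisson interval 3386–3833) and 2433 CPM for *Igf2* (2255–2623).

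The other imprinted growth genes were also present in these cells. A chondrocyte-like cell held UMIs of a median of 9 of the 10 genes (range 5–10), against a median of 3 over all stromal cells, 2 over ECs and over epithelial cells, and 0 over immune cells. *Meg3* reached 6119 CPM, *Peg3* 1628 CPM, *Plagl1* 589 CPM, *Cdkn1c* 436 CPM, *Dlk1* 294 CPM, and *Grb10* 241 CPM there, and *Mest* at 167 CPM was found in 7 of the 18 cells. Only mouse 3 had at least 10 chondrocyte-like cells, so they entered no test of their own. Their median depth of 12538.5 UMIs was above that of all stromal cells.

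Outside the 18 chondrocyte-like cells, part of the *H19* came from single cells or a few cells. In a stromal cluster of 57 shallow cells led by *Igfbp6*, *Igf2*, and *H19* (median 855 UMIs, 13 marked as doublets), 1 cell of mouse 3 held 112 of 117 *H19* UMIs and 143 of 147 *Igf2* UMIs. That cell had 9645 UMIs in all, with 20 of *Acan* and none of *Col2a1*. At a resolution of 1.2 the chondrocyte-like cells of mouse 3 went from 11 with 179789 UMIs to 12 with 189434 UMIs. That rise equals the total of this cell, which therefore joined them. It stayed among the stromal cells wherever the chondrocyte-like cells were removed below. In 23 lymphatic-EC-like cells, of which 12 were marked as doublets, 7 cells held 88 *H19* UMIs, and 80.7% of these UMIs were in marked cells. In smooth-muscle-like cells, 3 cells of 201 held all 88 *H19* UMIs. The 29 *H19* UMIs of T-cell-like cells lay in 2 cells of mouse 3. Other sites had more positive cells. *H19* was found in 19 of 498 Aplnr-type capillary-like cells, at 24.2 ± 17.4 CPM (SD over mice). It was in 13 of 71 Col14a1-type cells, 10 of 134 pericyte-like cells, and 13 of 124 cells of a stromal cluster led by *Notch3*, *Parm1*, and *Gpc6* (63.5 ± 74.8 CPM).

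*Igf2* had further sites spread over more cells, among them arterial-EC-like cells. There it was found in 39 of 166 cells, at 42.03, 175, and 96.5 CPM in mice 2, 3, and 4, with no UMI in a marked doublet. *Igf2* was at 1.67, 1.77, and 0.939 CPM in Aplnr-type capillary-like cells and at 6.80, 4.78, and 2.38 CPM in venous-EC-like cells. The arterial levels lay above both in every mouse. In Car4-type capillary-like cells *Igf2* was at 67.5, 4.62, and 4.67 CPM, with all 36 UMIs in 3 cells, and overlapped with the arterial range. *H19* did not share this site, with 5 UMIs in 3 arterial-like cells. Lymphatic-EC-like cells held *Igf2* in 11 of 23 cells, at 313 CPM pooled against 103 CPM pooled in arterial-like cells. Of those 23 cells, 12 were marked as doublets. In the stroma *Igf2* was found in 18 of 71 Col14a1-type and 37 of 201 smooth-muscle-like cells. It was also found in 29 of 124 cells of a cluster led by *Notch3*, *Parm1*, and *Gpc6*. The subtypes of ECs were compared by their values only, with no test.

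Summed over a whole class, *H19* was at 27.2, 183, and 45.7 CPM in stromal cells and at 21.1, 18.0, and 22.4 CPM in ECs of mice 2, 3, and 4. The groups did not overlap, with mouse 3 far above the other stromal values. The log2 difference for *H19* was 2.14 ± 0.60 (SE, adjusted p = 0.00719), without mouse 3 it was 0.86, and without the chondrocyte-like cells it was 0.31 (adjusted p = 0.662). DESeq2 gave an adjusted p of 0.100 for the same comparison. *Igf2* was at 18.2, 128, and 47.3 CPM in stromal cells and at 34.0, 41.0, and 30.1 CPM in ECs, so the groups overlapped. The log2 difference for *Igf2* was 0.99 ± 0.48 (adjusted p = 0.0938), it was −0.47 (adjusted p = 0.277) without the chondrocyte-like cells, and it ran from 0.15 without mouse 3 to 1.42 (adjusted p = 0.0234) without mouse 2. In epithelial cells *H19* stayed at or below 0.347 CPM (6 UMIs in 1256 cells) and *Igf2* at or below 3.36 CPM, and both were lower there than in stromal cells (log2 difference 7.81 ± 1.07 for *H19*, adjusted p = 1.12e-05, and 4.10 ± 0.62 for *Igf2*, adjusted p = 2.89e-05). Without mouse 3 these were 6.45 and 2.87, and without mouse 2 that for *Igf2* was 4.74.

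*H19* was higher in ECs than in immune cells by 2.81 ± 1.03 (adjusted p = 0.0242), a difference that was 6.86 without mouse 3 and a call that was lost without mouse 2 (adjusted p = 0.0676) or mouse 4 (adjusted p = 0.112), and with marked doublets removed (adjusted p = 0.0869). For *Igf2* between epithelial and immune cells the log2 difference was 3.44 ± 1.78 (adjusted p = 0.0925), and with the mouse as a block it was 3.76 (adjusted p = 0.0330). At the level of single cells, 52 cells held UMIs of both genes, which is 40.3% of the 129 *H19*-positive cells and 18.8% of the 277 *Igf2*-positive cells. All 15 *H19*-positive chondrocyte-like cells also held *Igf2*.

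*Dlk1*, which encodes a transmembrane protein related to Notch ligands (chr12:109452823-109463336, plus strand), and *Meg3*, a long noncoding RNA (chr12:109541001-109571726, plus strand), belong to another imprinted cluster. *Meg3* hosts microRNAs in its exons, shown here with the seed in capitals. The *Meg3* promoter window (RefSeq, GRCm38.p6, chr12:109540746-109541045, plus strand, 250 bases before to 50 after the start) is printed because *Meg3* was the most abundant of the 10 RNAs. Capitals mark 2 overlapping matches to TATAAA, read on either strand, at −29 and −25 from the start, and 13.6% of 32851 windows hold this motif.
mmu-miR-770-5p: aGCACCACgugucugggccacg
mmu-miR-770-3p: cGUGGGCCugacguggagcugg
mmu-miR-1906: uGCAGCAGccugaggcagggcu
Meg3 promoter: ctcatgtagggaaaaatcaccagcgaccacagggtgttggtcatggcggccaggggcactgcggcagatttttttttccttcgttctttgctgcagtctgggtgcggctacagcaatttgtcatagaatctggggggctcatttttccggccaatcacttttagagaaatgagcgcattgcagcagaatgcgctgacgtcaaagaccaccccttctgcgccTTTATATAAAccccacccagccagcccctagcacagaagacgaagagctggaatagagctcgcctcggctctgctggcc

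*Meg3* held 21798 UMIs in 1763 cells, more than any other of the 10 genes, and was high in both epithelial and stromal cells. It was at 485, 570, and 627 CPM in epithelial, 398, 523, and 358 CPM in stromal, and 18.2, 28.1, and 19.1 CPM in EC sums of mice 2, 3, and 4. The epithelial and stromal values overlapped between mice, and both lay far above the ECs. *Meg3* was higher in stromal cells than in ECs by 4.42 ± 0.18 (adjusted p = 1.91e-11) and lower in stromal than in epithelial cells by 0.77 (log2 difference −0.77 ± 0.14, adjusted p = 0.000201). AT2-like cells, the surfactant producers, held 11529 of the 12536 epithelial *Meg3* UMIs, and 839 of 1042 cells held *Meg3* at 585, 669, and 766 CPM. AT1-like cells, which form the gas exchange surface, were lower in each mouse at 222, 394, and 324 CPM, and club-like cells of the airways were at 82.1, 25.8, and 86.8 CPM.

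A single cell carried much of the *Meg3* outside the classes. In a cluster of 164 shallow cells led by *Uchl1*, *Pcsk1n*, and *Sncg* (median 775.5 UMIs), 1 cell of mouse 3 with 178038 UMIs held 1169 of 1183 *Meg3* UMIs and 202 of 211 *Ndn* UMIs. It also held 738 *Uchl1* UMIs, and it was marked as a doublet. These were 5.36% of all *Meg3* UMIs and 8.25% of all *Ndn* UMIs of the 3 lungs.

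*Dlk1* was the least abundant, with 799 UMIs in 169 cells, 105 of them AT2-like. In epithelial cells it was at 14.4, 21.4, and 29.4 CPM, in stromal cells at 17.5, 21.0, and 3.15 CPM, and in ECs at 0.293, 1.95, and 0 CPM. Stromal and epithelial values overlapped, and both lay above the ECs in every mouse. *Dlk1* was higher in stromal cells than in ECs by 4.50 ± 0.93 (adjusted p = 0.000691) and lower than in epithelial cells (log2 difference −1.04 ± 0.43, adjusted p = 0.0436). The former was 3.91 without mouse 2 and 6.04 without mouse 3. The latter call was lost without mouse 2 (adjusted p = 0.0651) and without mouse 4 (−0.24, adjusted p = 0.439). It was also lost with DESeq2, with scaling by library size only, and with marked doublets removed. Within the stroma, *Dlk1* was uneven. It was at 80.8, 136, and 24.4 CPM in Col14a1-type fibroblast-like cells and had no UMI in 766 myofibroblast-like, 201 smooth-muscle-like, and 165 Col13a1-type fibroblast-like cells. Against a floor of 3 counts over each group, the pooled *Dlk1* level of Col14a1-type cells was at least 244-fold higher than in myofibroblast-like, 95.3-fold higher than in smooth-muscle-like, and 64.4-fold higher than in Col13a1-type cells. Only 13 of 71 Col14a1-type cells held *Dlk1*, and a stromal cluster led by *Notch3*, *Parm1*, and *Gpc6* held it at 66.8, 15.4, and 8.84 CPM.

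Cells with *Dlk1* nearly always held *Meg3*. Of the 169 *Dlk1*-positive cells, 155 (91.7%) also held *Meg3*, while these were 8.79% of the 1763 *Meg3*-positive cells. In stromal cells it was 38 of 38, and in AT2-like cells 98 of 105. AT2-like cells are deep, and most of them held *Meg3* whether or not *Dlk1* was found, so the joint count was not tested.

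*Cdkn1c* encodes p57, an inhibitor of cyclin-dependent kinases that holds back cell division (chr7:143458339-143461050, minus strand). It was at 163, 132, and 130 CPM in stromal, 55.4, 96.0, and 60.9 CPM in EC, and 36.8, 46.8, and 85.1 CPM in epithelial sums. Stromal values lay above all others, while ECs and epithelial cells overlapped. *Cdkn1c* was higher in stromal cells than in ECs by 1.14 ± 0.25 (adjusted p = 0.00113) and than in epithelial cells by 0.95 ± 0.23 (adjusted p = 0.00221), and the latter call was lost without mouse 2 (0.61, adjusted p = 0.0662). ECs and epithelial cells differed by −0.19 ± 0.26 (adjusted p = 0.544).

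The stromal, EC, and epithelial classes each held a type with a high level of *Cdkn1c*, though 54.8% of all stromal cells held a UMI of it. In the stroma this was pericyte-like cells, the contractile cells that wrap capillaries, at 606, 633, and 578 CPM. Mean levels were 200 CPM in Col14a1-type, 181 CPM in Col13a1-type, and 125 CPM in myofibroblast-like cells. Smooth-muscle-like cells were lowest of the tested stromal types, at 33.2, 31.1, and 26.4 CPM. Among ECs, arterial-like cells were at 228, 347, and 275 CPM, and Car4-type capillary-like cells at 10.5, 4.62, and 6.997 CPM. Among epithelial cells, club-like cells were at 239, 338, and 742 CPM, and AT2-like cells at 10.3, 7.97, and 8.72 CPM. In all 3 classes the ranges given for each mouse did not overlap. *Cdkn1c* was detected in 45 of 48 club-like cells and 111 of 134 pericyte-like cells. A shallow cluster of 44 cells (median 783 UMIs) was among the pericyte-like cells.

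*Grb10* encodes an adaptor that dampens signaling through the insulin and IGF1 receptors (chr11:11930508-12038683, minus strand). It was found in the most cells of the 10, 2385 of 7642. *Grb10* was at 240, 255, and 283 CPM in stromal, 113, 101.5, and 116 CPM in EC, 38.6, 36.8, and 37.4 CPM in epithelial, and 0, 1.87, and 1.99 CPM in immune sums. The 4 classes formed an order with no overlap. The log2 difference was 1.34 ± 0.12 between stromal cells and ECs (adjusted p = 1.38e-07) and 1.07 ± 0.13 between ECs and epithelial cells (adjusted p = 3.24e-06). Myofibroblast-like cells, which lay down elastin in growing alveolar septa, were at the top of the ranked types for *Grb10* at 368, 416, and 395 CPM. They did not overlap with the next ranked type, venous-EC-like cells at 168, 174, and 200.3 CPM. Only types with at least 10 cells in 2 or more mice were ranked, which left out chondrocyte-like cells. The myofibroblast-like cells were not uniform. Of these 766 cells, 245 formed a cluster led by *Pdgfra*, *Stc1*, and *Agt*. That cluster scored lower on the myofibroblast markers (mean log2 fold 1.48) than the others under this name (2.47 and 3.09).

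*Mest*, which encodes a protein of the alpha/beta hydrolase fold (chr6:30723547-30748465, plus strand), had most of its UMIs in ECs. It hosts a microRNA in an intron, printed with the seed in capitals, and a promoter window (chr6:30737800-30738099, plus strand) with a GGGCGG match in capitals at −57, a motif found on either strand in 35.7% of all windows.
mmu-miR-335-5p: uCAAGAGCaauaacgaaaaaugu
mmu-miR-335-3p: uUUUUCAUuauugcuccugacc
Mest promoter: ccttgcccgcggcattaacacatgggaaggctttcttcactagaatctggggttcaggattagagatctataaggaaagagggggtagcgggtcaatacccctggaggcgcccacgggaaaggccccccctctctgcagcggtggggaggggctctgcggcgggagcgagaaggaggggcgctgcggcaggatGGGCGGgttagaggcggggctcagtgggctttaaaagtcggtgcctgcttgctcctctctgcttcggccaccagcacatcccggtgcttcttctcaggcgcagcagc

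ECs held *Mest* at 206, 252, and 213 CPM, stromal cells at 17.7, 15.6, and 12.5 CPM, epithelial cells at 0.479, 0.186, and 0.925 CPM, and immune cells at 0.582, 0.625, and 1.74 CPM. Every EC value lay above every other. *Mest* was lower in stromal cells than in ECs (log2 difference −3.76 ± 0.14, adjusted p = 1.11e-11) and higher in ECs than in epithelial cells by 8.05 ± 0.23 (adjusted p = 3.59e-13), or 8.71 without mouse 4. *Copg2* overlaps *Mest* on the opposite strand with 2058 UMIs, and whether the counting used strand is not given in the sources used here.

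Among ECs, *Mest* followed the capillaries. Car4-type capillary-like cells were at 468, 695, and 448 CPM, Aplnr-type capillary-like cells at 200.2, 223, and 225 CPM, venous-like cells at 68.0, 141, and 95.4 CPM, and arterial-like cells at 38.4, 41.2, and 48.2 CPM. These 4 ranges formed a descending order with no overlap. *Mest* was found in 109 of 168 Car4-type and 276 of 498 Aplnr-type cells. Depth was not uniform within these types. A cluster of 74 of the Car4-type cells had a median of 867 UMIs, and 63 of the Aplnr-type cells had a median of 1797. Outside the classes, a cluster of 31 cells led by *Pf4*, *Clec1b*, and *Nrgn* reached the Car4-type level, at 710 and 382 CPM in mice 2 and 3, with 41 of its 49 *Mest* UMIs in 1 cell. Of the 266 stromal *Mest* UMIs, 134 lay in pericyte-like cells, at 115, 221, and 221 CPM, 47 in chondrocyte-like cells, and 32 in Col14a1-type fibroblast-like cells, while myofibroblast-like cells stayed at or below 2.11 CPM.

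*Peg3*, which encodes a zinc finger protein linked to growth and nurturing (chr7:6703892-6730431, minus strand), has a promoter window (chr7:6730370-6730669, minus strand) with a match to GGGGCCCC, its own reverse complement, in capitals at −201. That motif is in 1.08% of all windows.
Peg3 promoter: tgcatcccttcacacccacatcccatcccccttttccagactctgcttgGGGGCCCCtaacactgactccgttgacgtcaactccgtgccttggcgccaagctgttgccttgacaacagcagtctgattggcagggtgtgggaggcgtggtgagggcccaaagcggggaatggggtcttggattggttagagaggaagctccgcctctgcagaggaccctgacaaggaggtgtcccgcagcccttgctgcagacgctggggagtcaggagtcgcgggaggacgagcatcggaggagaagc

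The member windows were richer in CpG than usual, with a median of 13 CpG in 15 windows of 8 members against 7 in all 32851 windows, and a median GC content of 59.3% against 52.7%. Windows of a gene can overlap, so the 15 are not independent, and methylation was not measured. *H19* and *Cdkn1c* had no window in the RefSeq table used.

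*Peg3* was at 223, 286, and 214 CPM in stromal, 129, 136, and 155 CPM in EC, and 18.0, 15.04, and 27.6 CPM in epithelial sums. The 3 classes did not overlap. *Peg3* was higher in stromal cells than in ECs by 0.89 ± 0.16 (adjusted p = 0.000259) and in ECs than in epithelial cells by 2.27 ± 0.19 (adjusted p = 5.1e-08). Among the 5 tested stromal types, the 2 fibroblast types were highest and overlapped, Col14a1-type at 556, 557, and 746 CPM and Col13a1-type at 619, 527, and 517 CPM. Pericyte-like cells were near the floor at 11.5, 0, and 7.61 CPM (6 UMIs in 134 cells). Among ECs, Aplnr-type cells were at 157, 213, and 220 CPM.

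*Plagl1* encodes a zinc finger transcription factor that restrains the cell cycle (chr10:13060504-13131694, plus strand). It was at 62.8, 77.3, and 74.0 CPM in stromal, 39.2, 27.5, and 45.8 CPM in epithelial, and 17.6, 31.6, and 24.3 CPM in EC sums. Stromal values lay above all others, while epithelial cells and ECs overlapped. *Plagl1* was higher in stromal cells than in ECs by 1.68 ± 0.20 (adjusted p = 2.99e-06) and lower in ECs than in epithelial cells (log2 difference −1.15 ± 0.20, adjusted p = 0.000131). The stromal excess over epithelial cells, 0.53 ± 0.16 (adjusted p = 0.0108), was lost without mouse 3 (0.28, adjusted p = 0.0740) and without the chondrocyte-like cells (0.34, adjusted p = 0.0823). Pooled chondrocyte-like cells had the highest level, 589 CPM as given above, and the next sites overlapped in level. AT1-like cells were at 143, 76.0, and 158 CPM, venous-EC-like cells at 90.6, 163, and 112 CPM, and myofibroblast-like cells at 84.3, 87.8, and 95.3 CPM.

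*Ndn* encodes necdin, a MAGE family protein that restrains growth (chr7:62346569-62350262, plus strand). It was at 98.0, 91.5, and 92.9 CPM in stromal, 38.1, 41.0, and 56.8 CPM in EC, and 3.24, 4.83, and 2.89 CPM in epithelial sums. The 3 classes did not overlap. *Ndn* was higher in stromal cells than in ECs by 1.16 ± 0.13 (adjusted p = 1.77e-06) and than in epithelial cells by 4.36 ± 0.17 (adjusted p = 6.36e-12). Pericyte-like cells were highest among the tested stromal types at 247, 246, and 213 CPM. The next were Col14a1-type fibroblast-like cells, with a mean of 140 CPM, and then smooth-muscle-like cells at 117, 114, and 107 CPM.

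**Figure D4:**
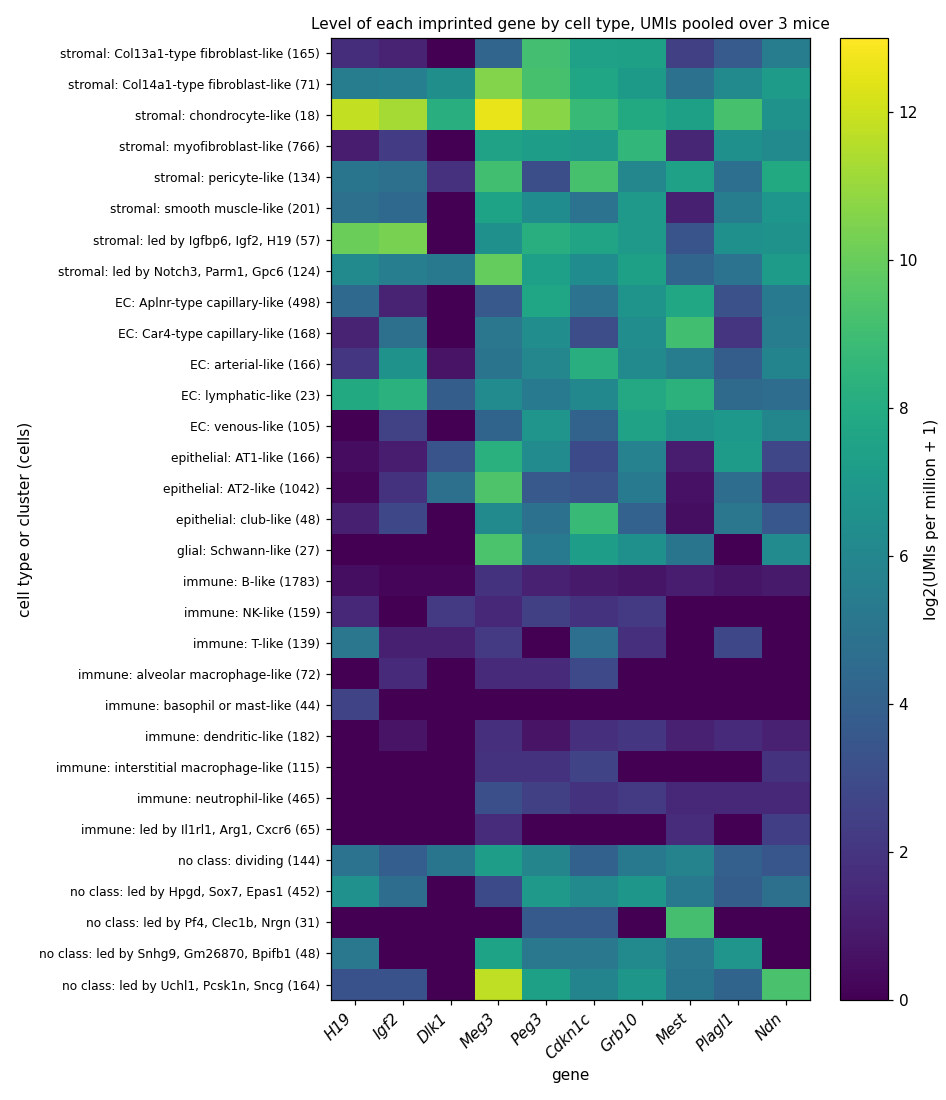
Heat map of log2(CPM + 1), pooled over the 3 mice, for the 10 genes in named cell types and unnamed clusters. *Meg3* is highest in chondrocyte-like cells (6119 CPM), *Mest* is high in the capillary EC types and in the cluster led by *Pf4*, and the immune types are nearly empty for every gene.

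The stromal types were then compared with each other, asking which mesenchymal cells carry each RNA. Each of 5 types, summed per mouse, was set against the mean of the other stromal types in the fit, with 9545 genes tested. Col14a1-type fibroblast-like cells, which sit around vessels and airways, had more of 9 of the 10 genes and less of none (background 25.8% called, with 17.0% higher and 8.72% lower). *Dlk1* is among the 9, but it passed the filter on low counts only through Col14a1-type cells. Its call could therefore go no other way and adds no support. Myofibroblast-like cells had more of 2 and less of 6 (background 30.5%, with 16.0% higher and 14.5% lower). Pericyte-like cells had more of 4 and less of 3 (background 32.4%, with 16.1% higher and 16.4% lower). Col13a1-type fibroblast-like cells had more of 1 and less of 4 (background 31.6%, with 18.4% higher and 13.3% lower), and smooth-muscle-like cells more of 1 and less of 3 (background 37.2%, with 21.5% higher and 15.7% lower). In all, 33 of 50 tests passed.

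In Col14a1-type cells *Meg3* was at 1516, 1776, and 1286 CPM, higher than the mean of the other types by 3.70 ± 0.17 (adjusted p = 1.05e-14). Every mouse lay above every other tested type, the next being pericyte-like cells at 433, 627, and 635 CPM. The stromal cluster led by *Notch3*, *Parm1*, and *Gpc6*, which was not in the fit, lay between them at 967 ± 48.5 CPM (SD). *Peg3* was higher in Col14a1-type cells by 3.04 ± 0.13 (adjusted p = 5.8e-15), *Plagl1* by 1.31 ± 0.19 (adjusted p = 8.93e-06), and *Cdkn1c* by 0.70 ± 0.13 (adjusted p = 0.000267). Pericyte-like cells had larger means for *Cdkn1c* (606 against 200 CPM), *Mest* (186 against 27.8 CPM), and *Ndn* (235 against 140 CPM). Myofibroblast-like cells had a larger mean for *Plagl1* (89.1 against 75.0 CPM). *Meg3*, *Peg3*, *Igf2*, *H19*, and *Dlk1* had their highest mean among the tested types in Col14a1-type cells. *Igf2* was at 33.3, 32.8, and 90.6 CPM there and higher by 2.89 ± 0.48 (adjusted p = 4.34e-05). *H19*, at 14.3, 88.9, and 20.9 CPM, was higher by 2.82 ± 0.88 (adjusted p = 0.0192, and 3.70 without mouse 3), but DESeq2 gave adjusted p-values of 0.152 for *H19* and 0.0554 for *Dlk1*. *Grb10* was the exception, with a log2 difference of 0.04 ± 0.13 (adjusted p = 0.905).

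Myofibroblast-like cells had a different makeup. *Grb10* was higher by 1.63 ± 0.09 (adjusted p = 5.71e-13) and *Plagl1* by 1.34 ± 0.12 (adjusted p = 5.92e-09). *Mest* was lower (−3.02 ± 0.51, adjusted p = 4.6e-05), and so were *Ndn* (−0.74 ± 0.10, adjusted p = 1.51e-06) and *Cdkn1c* (−0.49 ± 0.11, adjusted p = 0.00107). *H19*, *Igf2*, and *Meg3* also passed in the lower direction. The call for *H19* was lost without mouse 3 (adjusted p = 0.9999), that for *Igf2* without mouse 2 (0.0897) or mouse 4 (0.100), and that for *Meg3* without mouse 3 (adjusted p = 0.9999) or mouse 4 (0.101). All 3 calls were also lost with marked doublets removed. With DESeq2, and with scaling by library size only, 5 of the 6 lower calls were left.

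Pericyte-like cells were high in some of the genes and low in others. *Mest* was higher than the mean of the other types by 5.28 ± 0.28 (adjusted p = 1.41e-13), *Cdkn1c* by 2.35 ± 0.12 (adjusted p = 3.74e-14), *Meg3* by 1.57 ± 0.20 (adjusted p = 8.58e-07), and *Ndn* by 1.36 ± 0.13 (adjusted p = 4.91e-09). Without mouse 2 the difference for *Mest* was 5.92. *Peg3* was lower (−5.14 ± 0.30, adjusted p = 1e-12, and −5.85 without mouse 2), and so was *Grb10* (−1.63 ± 0.17, adjusted p = 4.21e-08). *Plagl1* was lower by a call (−0.88 ± 0.28, adjusted p = 0.0188) that was lost without mouse 3 (adjusted p = 0.0764) or mouse 4 (adjusted p = 0.223). The *Plagl1* call was also lost with marked doublets removed and under a stricter cell filter (500 genes, 10% mitochondrial UMIs). *H19* was at 40.2, 0, and 41.8 CPM and *Igf2* at 34.5, 0, and 34.2 CPM in pericyte-like cells, and neither passed (adjusted p = 0.183 and 0.0722), but with the mouse as a block both did (2.56, adjusted p = 0.0173, and 1.59, adjusted p = 0.0396).

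Col13a1-type cells were higher in *Peg3* by 2.69 ± 0.13 (adjusted p = 1.87e-14) and lower in *Meg3* (−4.50 ± 0.30, adjusted p = 1.19e-11, and −5.61 without mouse 3), *Igf2* (−3.59 ± 0.82, adjusted p = 0.0013), *Plagl1* (−2.07 ± 0.24, adjusted p = 1.33e-07), and *Ndn* (−1.54 ± 0.14, adjusted p = 1.99e-09). *Meg3* was at 1.66, 32.0, and 13.4 CPM there, which does not overlap with the 1286 to 1776 CPM of the other fibroblast type. With the mouse as a block, *H19* (−2.95, adjusted p = 0.0325) and *Cdkn1c* (0.32, adjusted p = 0.0372) also passed in Col13a1-type cells, from adjusted p-values of 0.181 and 0.0535. Smooth-muscle-like cells were lower in *Mest* (−3.37 ± 0.58, adjusted p = 4.09e-05, with −4.63 without mouse 2 and −2.60 without mouse 3), *Cdkn1c* (−2.86 ± 0.15, adjusted p = 1.28e-13), and *Peg3* (−0.78 ± 0.21, adjusted p = 0.00451, lost without mouse 2 at adjusted p = 0.265). *Igf2* was higher there by 1.19 ± 0.45 (adjusted p = 0.0387), which was lost without mouse 3 (0.42, adjusted p = 0.584) or mouse 4 (adjusted p = 0.0597). That call was also lost with DESeq2, at a clustering resolution of 1.2, and under a stricter cell filter (500 genes, 10% mitochondrial UMIs). *H19* did not pass in smooth-muscle-like cells (adjusted p = 0.0609). It did with the mouse as a block (1.47, adjusted p = 0.0452), without mouse 4 (adjusted p = 0.0351), and without the filter on low counts (adjusted p = 9.1e-10). These values rest on 3 of 201 cells with *H19*, of which 1 cell of mouse 3 held 48 UMIs. Without mouse 3 the difference turned its sign (−0.37).

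**Figure D5:**
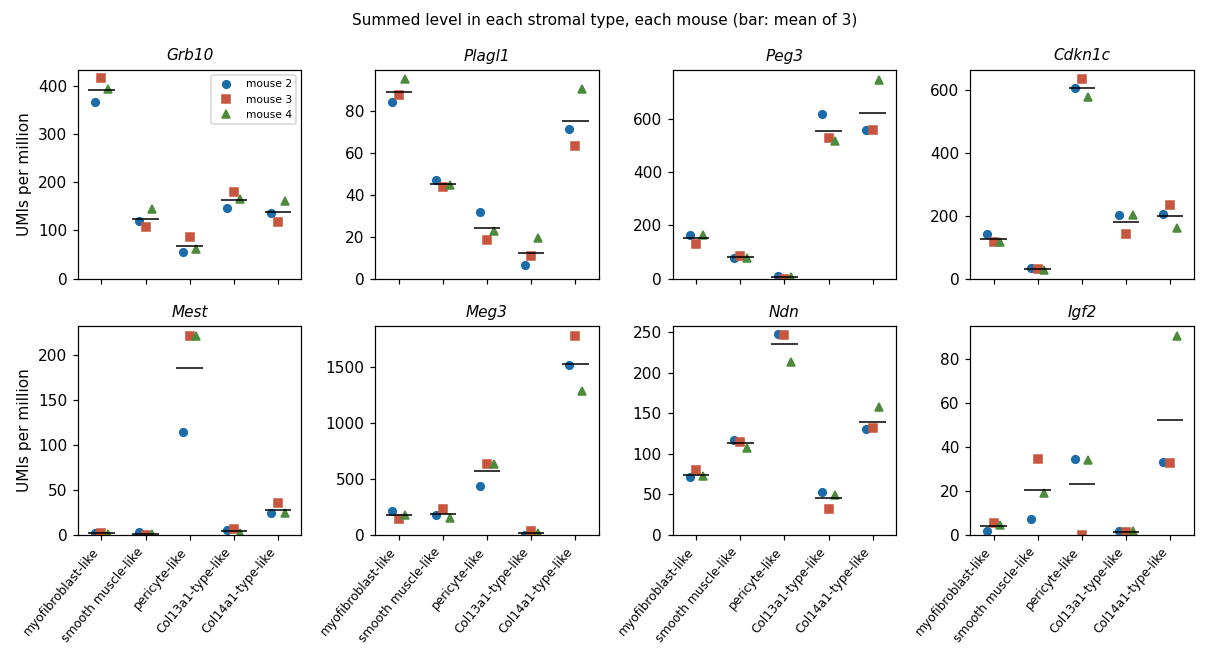
CPM of 8 genes (y axis) in 5 stromal types (x axis), a symbol for each mouse and a bar for the mean of 3. *Grb10* is highest in myofibroblast-like cells (368 to 416 CPM), *Cdkn1c* in pericyte-like cells (578 to 633 CPM), and *Meg3* in Col14a1-type cells (1286 to 1776 CPM).

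Several of these genes restrain growth, which raises the question whether their RNA differs in dividing cells. For this comparison alone, each cell's class was taken from its own class-marker UMIs, not from its cluster. ECs with at least 4 dividing-cell genes detected (39, 17, and 33 cells in mice 2, 3, and 4) were compared with the other ECs so defined (497, 314, and 463 cells) over 12427 genes. None of the 10 genes passed with edgeR (background 8.39%, with 5.71% higher and 2.68% lower), none had an unadjusted p under 0.05, and none passed with DESeq2. The fitted log2 differences ran from −0.62 for *Cdkn1c* to 2.30 for *Dlk1*, the latter on few UMIs. For *Cdkn1c* the difference was −0.62 ± 0.38 (adjusted p = 0.395), so a difference of this size was not detectable. Stromal cells gave 4, 5, and 5 dividing cells, under the minimum of 10 per mouse, and could not be fitted.

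Other genes listed as imprinted gave a wider view, and whether each is imprinted in the lung was not tested. Of 46 listed, 33 were tested, and 19 were higher and 3 lower in stromal cells than in ECs, which is 66.7% of those tested beside 55.8% of all genes, with a median log2 difference of 0.52. Against epithelial cells 19 were higher and 9 lower (84.8% beside 67.3%), and against immune cells 23 were higher and 3 lower (78.8% beside 76.3%). ECs had more of 6 and less of 14 than epithelial cells (60.6% beside 66.3%), and more of 20 and less of 6 than immune cells (78.8% beside 69.4%), while epithelial cells had more of 23 and less of 5 than immune cells (84.8% beside 75.5%). The 6 with the most UMIs were *Gnas*, *Cd81*, *Kcnq1ot1*, *Ube3a*, *Ppp1r9a*, and *H13*. *Cd81*, a tetraspanin, was at 1086 CPM in stromal cells and 440.3 CPM in ECs and was higher by 1.41 ± 0.10 (adjusted p = 8.32e-09). *Kcnq1ot1*, the noncoding RNA of the domain that holds *Cdkn1c*, was at 397 CPM in stromal cells and 161 CPM in ECs, and was higher by 1.41 ± 0.10 (adjusted p = 8.44e-09). In immune cells *Kcnq1ot1* was at 385 CPM, near the stromal level. *Gnas* (0.52 ± 0.07, adjusted p = 1.77e-05), *Ppp1r9a* (0.59 ± 0.10, adjusted p = 0.000102), *H13* (0.26 ± 0.09, adjusted p = 0.0239), and *Ube3a* (0.19 ± 0.07, adjusted p = 0.0323) were higher by less. *Ppp1r9a* was at 325 CPM in epithelial cells, above the 97.3 CPM of stromal cells.

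The partners of IGF2 in the IGF pathway, its receptors, binding proteins, and adaptors, were tested as 14 genes. Between stromal cells and ECs 8 were higher and 1 lower (64.3% called beside 55.8% of all genes), and between stromal and epithelial cells 6 were higher and 6 lower (85.7% beside 67.3%). Stromal cells had more of 12 and less of 1 than immune cells (92.9% beside 76.3%). ECs had more of 4 and less of 6 than epithelial cells (71.4% beside 66.3%) and more of 7 and less of 3 than immune cells (71.4% beside 69.4%). Epithelial cells had more of 10 and less of 3 than immune cells (92.9% beside 75.5%). *Igf1*, the postnatal growth factor, was at 275 CPM in stromal cells and 12.5 CPM in ECs, a log2 difference of 4.57 ± 0.17 (adjusted p = 6.71e-12). The mean *Igf2* level in stromal cells was 64.4 CPM, and the scale is not per length. *Igf1r*, the receptor both ligands share, was at 247 CPM in stromal cells and 222 CPM in ECs (0.26 ± 0.13, adjusted p = 0.101). Of the binding proteins with most UMIs, *Igfbp5* (3.95 ± 0.56, adjusted p = 2.3e-05), *Igfbp7* (0.83 ± 0.18, adjusted p = 0.000917), and *Igfbp2* (4.12 ± 0.83, adjusted p = 0.00057) were higher in stromal cells than in ECs, while *Igfbp4*, at 432 CPM in stromal cells and 778 CPM in ECs, did not pass (−0.73 ± 0.30, adjusted p = 0.0503). *Igfbp2* was at 208 CPM in epithelial cells, above the 15.5 CPM of stromal cells.

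Across 20 cell types with sums from the mice, the members differed in the company they kept. As a description, Pearson's r of log2(CPM + 10) over these types was highest among members for *Peg3* with *Grb10* (0.874), and it was 0.705 for *Dlk1* with *Meg3* and 0.422 for *H19* with *Igf2*. Of 12556 genes, those nearest to *Grb10* were *Ghr* (0.975), *Nrep* (0.957), and *Gpx7* (0.954), and those nearest to *Ndn* were *Maged2* (0.968), *Slc2a10* (0.955), and *Mill2* (0.954). *Mest* lay nearest to *Pcdh1* (0.958), *Pcdh12* (0.943), and *Coro2b* (0.924), and *Peg3* to *Gpx7* (0.947), *Obsl1* (0.937), and *Nfib* (0.928). The nearest genes were *Mirg* (0.902), *Fam110b* (0.895), and *Dcbld2* (0.887) for *Meg3*, and *Tspan11* (0.913), *Smoc2* (0.890), and *Stab2* (0.835) for *Dlk1*. They were *Tead1* (0.893), *Asap3* (0.886), and *Ltbp3* (0.874) for *Plagl1*, and *Fign* (0.861), *Thnsl2* (0.836), and *Zdhhc1* (0.831) for *Cdkn1c*. For *Igf2* they were *Cxcl12* (0.824), *Pdia5* (0.812), and *Hey2* (0.809), and for *H19* they were *A4galt* (0.737), *Ndufa4l2* (0.737), and *Postn* (0.723). Types of the same class share libraries and are not independent, and chondrocyte-like cells were not among the 20.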

How the data were processed

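Per the labels, reads were aligned and counted by the authors with Cell Ranger 3.0.2 on mm10, and the deposited values are raw UMI counts per gene and cell. The annotation release and the use of strand are not given in the sources used here. The members and the gene lists were chosen with earlier results of these data known. Here, cells under 200 genes or over 20% mitochondrial UMIs were dropped (2002 cells), the rest, normalized with SCTransform (Seurat 5.3.0, sctransform 0.4.2), and clustered (30 components, resolution 0.8) without the members, and then named from marker lists. Doublet scores were computed, and the automatic threshold marked under 0.5% of the cells of each library, so cells were marked from the top score down, 0.8% per 1000 cells of a library (250 cells, 200 of them retained). Marked cells were kept. Libraries differed in their counts beyond the noise of sampling (chi-square over degrees of freedom 8.68 or more). UMIs were summed per mouse and group of at least 10 cells and tested with edgeR 4.0.16 (quasi-likelihood, TMM, filterByExpr, Benjamini-Hochberg at 0.05), and DESeq2 1.42.0 was an alternative. On simulated data with 200 genes changed by a log2 difference of 2, edgeR recovered 100% for stromal minus EC (13680 genes). The simulation gave every gene the same spread and changed only genes expected at 10 or more counts in each sum. It does not speak to genes whose UMIs lie in few cells. Sums of a mouse come from the same animal, so the mouse number pairs them, and the correlation of their deviations from the group means ran from −0.04 to 0.32 over the class sums. The mouse as a block was an alternative. Genes named in the text were the members, the 6 genes with most UMIs of each other list, and the 3 genes most like each member. Positions are from GRCm38 annotation and sequences from RefSeq tables.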

Additional observations from a re-analysis of the deposited data

Results flagged for a closer look

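The 2002 cells that the filter left out held 4866195 UMIs and were in no comparison. Of these cells, 2000 had over 20% mitochondrial UMIs and 862 had under 200 genes, so most of the 862 failed both limits. All 10 members were found there above the 0.616 CPM that a count of 0 allows. *Meg3* had 557 UMIs (114 CPM, against 328 CPM in the kept cells) and *Cdkn1c* 260 UMIs (53.4 CPM, against 69.2 CPM). There were 90 UMIs of *Peg3*, 47 of *Plagl1*, 46 of *Grb10*, 35 of *Ndn*, 34 of *Mest*, 28 of *Igf2*, 16 of *H19*, and 7 of *Dlk1*. All 10 levels were lower than in the kept cells.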

How the results depend on the processing

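The count of member calls between cell classes, 54 of 60, ran from 52 to 56 over the alternatives, and 49 of the 54 calls passed in the same direction under every alternative run. Those that did not were *H19* in stromal cells minus ECs and in ECs minus immune cells, and *Cdkn1c*, *Dlk1*, and *Plagl1* in stromal minus epithelial cells. Of the 33 calls between stromal types, 25 were made under every alternative, and the count ran from 29 (DESeq2) to 38. With the mouse as a replicate block the counts were 55, 38, and 0 (dividing ECs), and beside the block values given above it changed no other member call. Without each mouse in turn the counts ran from 52 to 54 for classes, 31 to 32 for stromal types, 129 to 142 for other imprinted genes (150 in all), and 64 to 69 for the IGF partners (67). Some values that did not pass turned their sign, and the cause was not tested. Chosen after seeing the data, the removal of the chondrocyte-like cells gave −0.47 for *Igf2* (stromal minus EC). The difference for *Cdkn1c* (EC minus epithelial) was 0.30 without TMM, −0.59 to 0.35 without a mouse (0.35 without mouse 4), and 0.81 under a stricter cell filter (500 genes, 10% mitochondrial UMIs). For *Dlk1* (EC minus immune) it was −1.04 to 0.72 without a mouse (−1.04 without mouse 3), −1.48 with classes from each cell's own marker UMIs, and −2.24 under the stricter filter. Without a mouse, *H19* ran from −3.57 to 1.27 (epithelial minus immune) and from −0.37 to 2.14 (smooth muscle), the turned sign being without mouse 3 in both. *Dlk1* in pericyte-like cells ran from −2.42 (without mouse 2) to 2.57 and was −2.40 under the stricter filter. *Grb10* in Col14a1-type cells gave −0.15 without TMM, −0.0451 without mouse 2, −0.0465 without mouse 4, and 0.19 without mouse 3. Thinning each cell to 1000 UMIs lowered the share of stromal cells with a UMI, by construction, to 1.94% for *H19*, 2.24% for *Igf2*, 0.893% for *Dlk1*, 19.8% for *Meg3*, 16.9% for *Peg3*, 13.3% for *Cdkn1c*, 22.6% for *Grb10*, 1.41% for *Mest*, 6.57% for *Plagl1*, and 9.18% for *Ndn*. Without the chondrocyte-like cells the stromal share of UMIs was 48.2% for *H19*, 28.4% for *Meg3*, and 8.52% for *Mest*. The stromal share of *Igf2* also rests in part on these cells, which held 45.4% of its UMIs pooled but 12.7% in mouse 2. Few dividing stromal cells and few cells with *H19*, *Igf2*, or *Dlk1* limit what these libraries can show.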
